A study of Mus musculus with 7 samples.

Results

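The genes of the postsynaptic scaffold and of synaptic adhesion were followed in RNA-seq of tissue labelled as mouse hippocampus. The group was defined by name, as 42 genes for postsynaptic density scaffolds, proteins that traffic or accompany glutamate receptors, and molecules that join the 2 sides of a synapse. They were chosen with earlier results of these data known. Their shares and medians beside those of all genes are therefore descriptions and not tests. All 42 were found among the 55416 gene identifiers of the deposited counts, and all 42 passed the filter on low counts that left 13152 genes for testing. Hippocampi came from age-matched male mice of the outbred CD1 stock, whose age in weeks is not given in the sources used here. The control group received no injection (3 libraries, replicates 1 to 3). The ONX-0914 group was injected intraperitoneally with an inhibitor of the immunoproteasome at 10 mg/kg, 2 injections a week for 2 months (2 libraries, replicates 1 and 2). The DMSO group received the same volume of the vehicle on the same schedule (2 libraries, replicates 2 and 3), so ONX-0914 against control compares drug and injection together. The labels do not say whether replicates are separate mice, and p-values therefore measure only the spread between these libraries, which may be technical.

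At an excitatory synapse, glutamate receptors are held opposite the release site by a layered protein mesh, the postsynaptic density. Membrane-associated guanylate kinases (MAGUKs) bind the receptors, DLGAP proteins link them to SHANK proteins, and HOMER proteins tie SHANK to metabotropic receptors deeper in the spine. Adhesion molecules such as neuroligins and LRRTM proteins reach across the cleft to presynaptic neurexins and to receptor phosphatases or proteoglycans, while gephyrin serves as the scaffold of inhibitory synapses.

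The sequence upstream of a transcription start is shown for Dlg3 and Lrrtm3, 2 of the 3 genes with the smallest p in ONX-0914 against control, which lay on opposite sides of control. RefSeq windows were matched for 31 of the 42 genes, without Shisa9, the other of the 3. Each run below holds the 250 bases before a RefSeq start, 5′ to 3′ on the strand of the gene (GRCm38.p6, a different build from that of the counts), and capitals mark matches to 3 motifs in either orientation. The GC box is spelled GGGCGG. The CCAAT box is spelled by its name. The half-site of the cAMP response element is spelled TGACG, and none of the 3 contains another. The Dlg3 windows lie at chrX:100774245-100774494 and chrX:100777021-100777270 on the plus strand, and the Lrrtm3 window lies at chr10:64090256-64090505 on the minus strand.
Dlg3, start 1: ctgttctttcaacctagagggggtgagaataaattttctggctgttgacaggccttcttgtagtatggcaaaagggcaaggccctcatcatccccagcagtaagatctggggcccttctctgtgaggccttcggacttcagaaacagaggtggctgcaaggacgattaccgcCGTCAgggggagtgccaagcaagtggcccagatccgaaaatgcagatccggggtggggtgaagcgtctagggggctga
Dlg3, start 2: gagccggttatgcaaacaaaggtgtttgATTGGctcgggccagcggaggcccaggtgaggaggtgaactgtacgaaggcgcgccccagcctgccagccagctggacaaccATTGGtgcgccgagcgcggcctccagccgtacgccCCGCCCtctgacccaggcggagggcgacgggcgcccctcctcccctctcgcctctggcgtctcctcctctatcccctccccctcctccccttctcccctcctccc
Lrrtm3: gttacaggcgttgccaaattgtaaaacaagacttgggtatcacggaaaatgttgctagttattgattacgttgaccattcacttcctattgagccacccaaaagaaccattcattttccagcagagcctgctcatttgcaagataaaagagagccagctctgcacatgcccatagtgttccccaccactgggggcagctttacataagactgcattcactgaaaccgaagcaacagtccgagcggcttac
The second Dlg3 window held 19 CpG dinucleotides, 1 GC box and 2 CCAAT boxes at 69.2% GC. The first held 7 CpG and 1 half-site at 55.2% GC. The Lrrtm3 window held 6 CpG and none of these letters at 46% GC. Among all 32851 windows of this length the median was 6 CpG, and 32.7% held a GC box, 33.8% a CCAAT box and 17.8% a half-site, so each of these features is common. The matches describe the letters only. The bases right after the Lrrtm3 start were found in its transcripts of the GENCODE M21 annotation. Those after either Dlg3 start were not found in the Dlg3 transcripts there.

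Library size and the levels of cell type and region markers differed between the 2 ONX-0914 libraries. Total counts on genes were 2842675 to 3877006 in 6 libraries and 13782270 in ONX-0914 replicate 2. Markers of hippocampal pyramidal and granule neurons were detected in every library, 8 of 8, with a summed level of 8669 to 9900 CPM (counts-per-million units after TMM scaling) in control, 8365 to 8425 in DMSO, 2839 in ONX-0914 replicate 1 and 7784 in replicate 2. In ONX-0914 replicate 1 all 8 of these markers were below every control library, while 13 of 14 thalamus and midbrain markers (1388 CPM against 157.9 to 185.9 in control) and 10 of 10 striatum markers (1377 against 238.8 to 270.7) were above. Replicate 2 had the most blood RNA, at 837.1 CPM over 5 markers against 30.02 to 40.08 in control and 96.4 in replicate 1, fewer astrocyte transcripts (2266 against 3087 to 3658) and neocortex markers at 382 CPM against 230.1 to 308.7. Endothelial markers were above every control library in both, 6 of 6. Oligodendrocyte markers summed to 9839 and 4440 CPM in replicates 1 and 2, microglia markers to 272.1 and 338.1 and choroid plexus markers to 74.25 and 185.2, against control ranges of 5007 to 7531, 244.8 to 256.3 and 39.93 to 189.3. In DMSO replicates 2 and 3, oligodendrocyte markers summed to 7790 and 9192 CPM and microglia markers to 278.2 and 316.6. Endothelial markers summed to 144.3 and 187.1 there, against 140.5 to 156 in control. In DMSO replicate 3, 7 of 8, 6 of 6 and 5 of 6 of these markers, in that order, were above every control library. In DMSO replicate 2 these counts were 3, 4 and 0. The neuron and region markers of ONX-0914 replicate 1 departed from its hippocampus label, and whether it holds tissue of neighbouring regions was not tested. The part of these differences in the results below was not tested either. In bulk tissue, fewer cells of a type and less RNA per cell cannot be told apart.

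The 42 genes spanned a wide range of abundance. In control hippocampus, Cnih2, an auxiliary subunit that slows AMPA receptor closing, had the highest level per exon length, with 158.4 ± 24.0 CPM per kilobase (SD, n = 3). Cyfip2, a subunit of the actin-regulating WAVE complex, followed at 133.9 ± 9.6, with control libraries that overlapped those of Cnih2, and Dlgap3 at 114.6 ± 1.89. Dlg4, which encodes PSD-95, stood at 80.5 ± 4.49. Lengths were those of all annotated exons of a gene merged, 13.25 kilobases for Dlg4 and 1.369 for Cnih2, and the order depends on them. Before division by length, the control means were 1066 CPM for Dlg4 and 216.9 for Cnih2. The lowest levels were those of Il1rapl1, an adhesion receptor, at 0.850 ± 0.102, and of Grip1, a PDZ protein that binds AMPA receptor tails, at 2.32 ± 0.553. Most genes were stable among the control libraries, and no member differed by more than 1 on the log2 scale between any 2 control libraries or between the DMSO libraries. The plot of levels per library shows the order of the 42 genes.

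**Figure D1:**
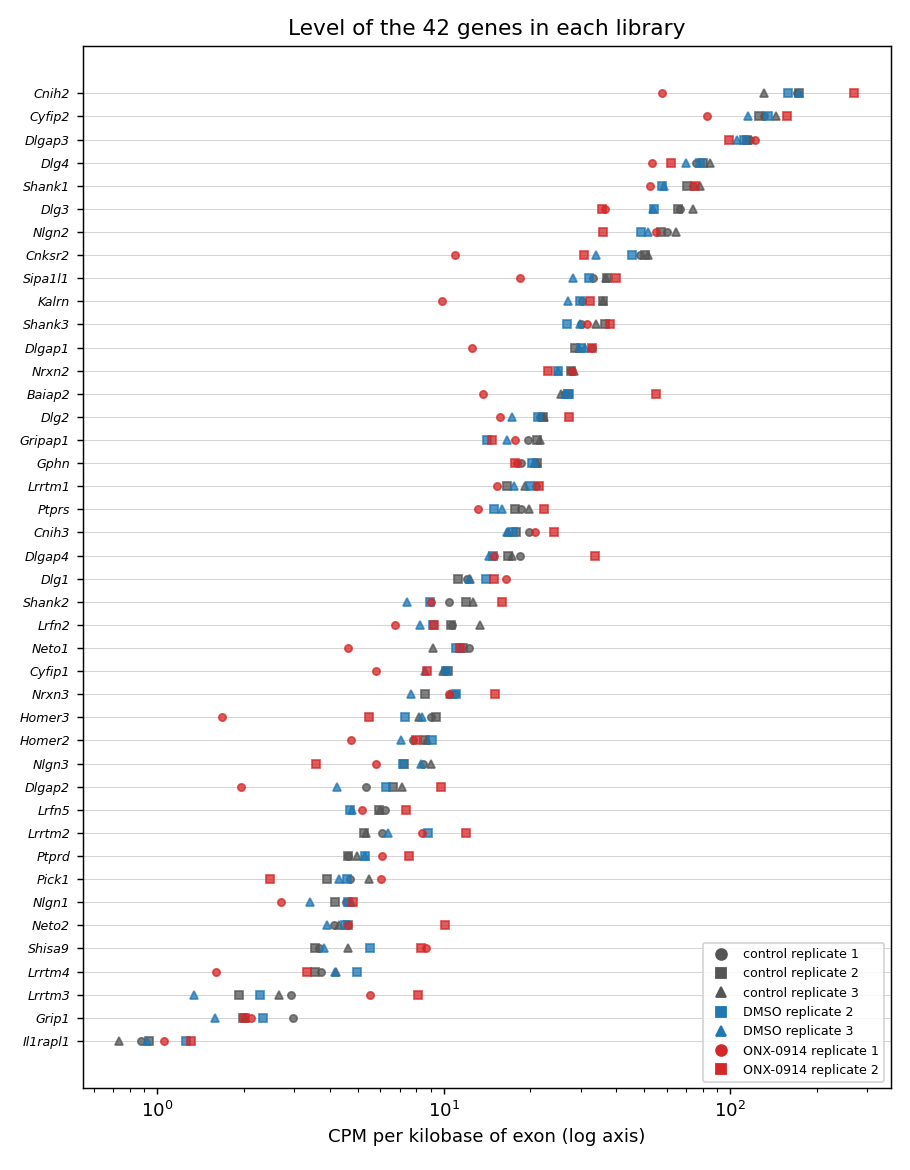
Level of each of the 42 genes in each of the 7 libraries, as CPM per kilobase of exon on a log axis, with genes ordered by their mean in control. Grey symbols are control, blue are DMSO and red are ONX-0914 libraries. The control symbols of most genes nearly coincide, while the red symbols are spread, as for Cnih2 at the top.

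To address whether ONX-0914 altered these transcripts, its libraries were first compared with control. In edgeR's quasi-likelihood test no member reached the FDR threshold of 0.05, at which 0.114% of all tested genes (15) were called. DESeq2 called 4 of them (Dlg3 and Cnksr2 lower, Shisa9 and Lrrtm3 higher), where it called 2.95% of all genes, and limma voom called 0, with 0.137% of all genes. At an unadjusted p under 0.05 there were 12 of 42 (28.6%), against 18.6% of all genes, with 6 lower (8.04% of all genes) and 6 higher (10.6% of all genes). Below an FDR of 0.1, where 1.48% of all genes lay, were Dlg3 (lower, as were 0.89% of all genes) and Shisa9 and Lrrtm3 (higher, as were 0.585%). With any 1 of the control or DMSO libraries left out, or with the compared groups only, no member was below that threshold. The Log2FC was below 0 for 27 members and above 0 for 15, against 46.2% of all genes below 0, with a median of −0.15 beside 0.05 over all genes. When libraries were scaled by total counts, the median of all genes moved to 0.19, that of the members to 0.000137, and the split became 21 and 21. Control and ONX-0914 libraries did not overlap for 19 members, of which 11 were lower (16.3% of all genes) and 8 higher (16.9% of all genes).

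**Figure D2:**
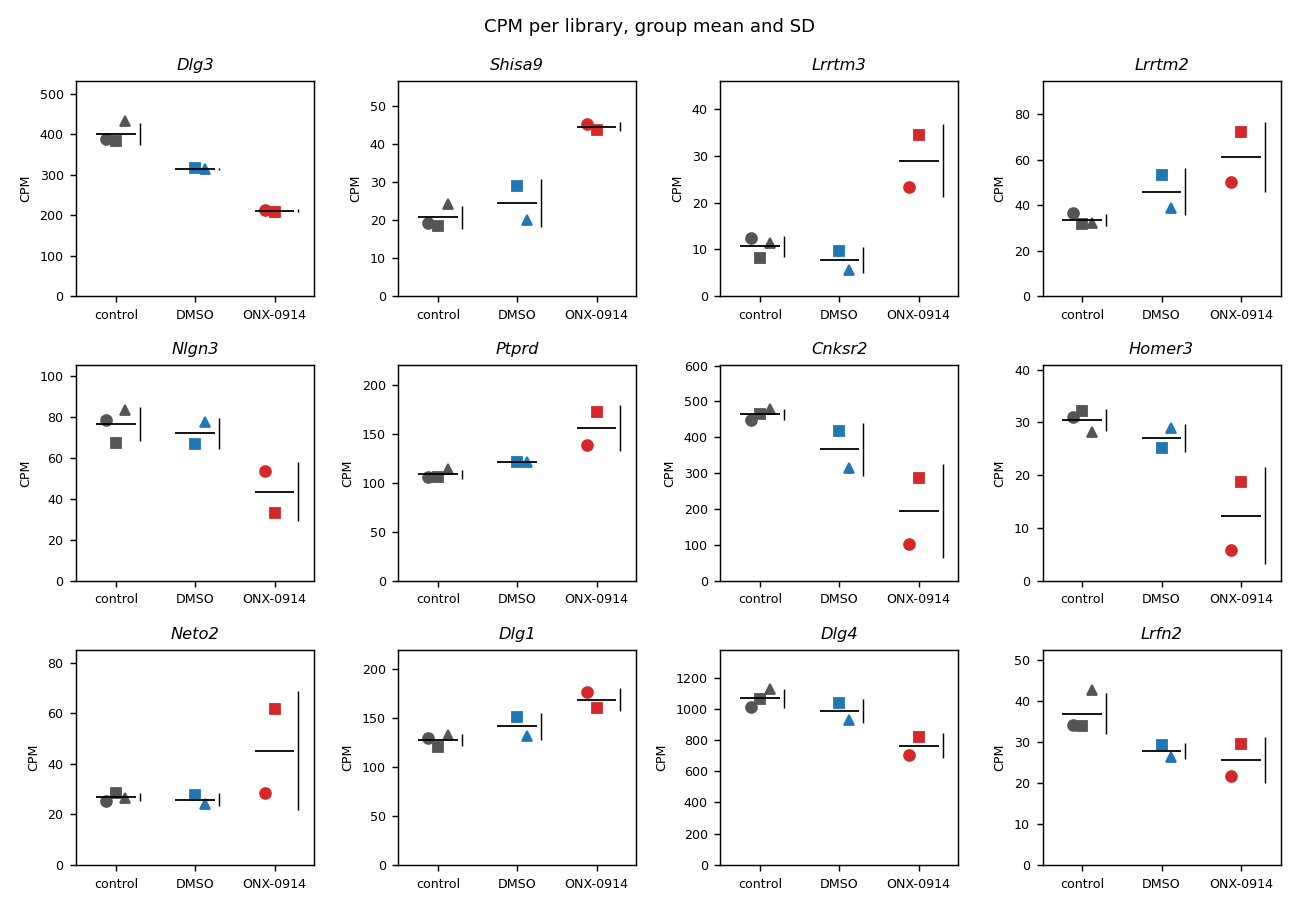
CPM in each library for the 12 genes with the smallest p in ONX-0914 against control, with the group mean (line) and SD (vertical bar); circles, squares and triangles are replicates 1, 2 and 3. The 2 ONX-0914 libraries nearly coincide for Dlg3 (213.4 and 208.6 CPM) and Shisa9 (45.3 and 43.68), and lie far apart for Cnksr2 (101.4 and 286.7) and Neto2 (28.44 and 61.72).

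Among the MAGUKs, Dlg3 (ENSMUSG00000000881), which encodes SAP102, a scaffold of NMDA receptors, had the smallest p. Its level was 389, 382.5 and 431.3 CPM in the control libraries, 316.6 and 313.4 in DMSO, and 213.4 and 208.6 in ONX-0914. The 3 groups did not overlap, DMSO lay between the others, and both ONX-0914 libraries had nearly the same value. Log2FC was −0.93 (SE 0.162, FDR = 0.0728), with control 1.9 times the ONX-0914 mean. Over 17 alternatives the Log2FC of Dlg3 ranged from −0.96 to −0.78, with FDR up to 0.371. Here and below, the smallest FDR came from a fit with 1 ONX-0914 library and is not given. Dlg1, which encodes the trafficking scaffold SAP97, was on the other side of control, with 129.4, 120.5 and 132.7 CPM in control, 151 and 131.4 in DMSO and 176.7 and 160.2 in ONX-0914 (Log2FC 0.40, SE 0.158, FDR = 0.234). Dlg4 had 1008, 1063 and 1127 CPM in control, 1040 and 929.9 in DMSO and 706 and 820.8 in ONX-0914 (Log2FC −0.48, SE 0.190, FDR = 0.234). Dlg2, which encodes PSD-93, lay within 353.3 to 363 CPM in control and gave 256 and 445.6 in the ONX-0914 libraries, one on each side. Within each library, the ratio of Dlg1 to Dlg3 counts, which needs no scaling between libraries, was 0.308 to 0.333 in control, 0.477 and 0.419 in DMSO and 0.828 and 0.768 in ONX-0914. This pair and those below were chosen after their values were seen, and no test was applied to the ratios. The 4 MAGUKs together summed to 1880 to 2054 CPM in control, 1856 and 1656 in DMSO and 1352 and 1635 in ONX-0914.

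For 3 of the 4 genes of the DLGAP proteins, which bridge MAGUKs and SHANK, the ONX-0914 libraries lay far apart. Dlgap2 had 32.8 to 44.06 CPM in control, 12.08 in ONX-0914 replicate 1 and 60 in replicate 2. Dlgap1 had 515 to 589.7 in control, with 223.5 and 590.5 in ONX-0914 replicates 1 and 2. Dlgap4 was at 141.8 to 155.4 in control, 125 and 121.7 in DMSO, 126.9 in ONX-0914 replicate 1 and 284.2 in replicate 2. The most abundant of the 4, Dlgap3, was nearly level, at 511.4 to 527.7 in control, 503 and 477.6 in DMSO and 548.7 and 446.9 in ONX-0914. Both DMSO libraries were below control for Dlgap3 and Dlgap4. Against control, none of the 4 had an unadjusted p under 0.05.

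Among SHANK and HOMER scaffolds, Homer3 was the only member with an unadjusted p under 0.05 against control. It had 31.02, 32.17 and 28.09 CPM in control, 25.22 and 28.91 in DMSO, and 5.789 and 18.77 in ONX-0914 (Log2FC −1.22, SE 0.402, FDR = 0.181). Both ONX-0914 libraries were below all others, though they differed more from each other than any control libraries did. Without ONX-0914 replicate 2 the Log2FC was −2.39, and without replicate 1 it was −0.70. In the GENCODE M21 annotation 25.4% of the exon bases of Homer3 lie opposite Ddx49, and the strand setting of the counting is not given in the sources used here. Homer2 reached 98.76 to 109.9 CPM in control against 59.9 and 101 in ONX-0914. Shank1, Shank2 and Shank3, the large organisers of the density, had Log2FC values of −0.21, 0.10 and 0.05, and for Shank2 the ONX-0914 libraries stood on either side of control, at 96.9 and 172.1 CPM against 112.3 to 136.6.

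Of the signalling and actin regulators, Cnksr2, a scaffold protein for Ras signalling, had the lowest Log2FC of all 42 genes. Its level was 448.5, 464.9 and 479.4 CPM in control, 418.8 and 313.8 in DMSO, and 101.4 and 286.7 in ONX-0914 (Log2FC −1.25, SE 0.389, FDR = 0.168). Each ONX-0914 library was below every other library, but replicate 1 was much lower than replicate 2, and without replicate 2 or replicate 1 the Log2FC was −2.20 or −0.71. Cyfip1 had 120.5, 123 and 118.1 CPM in control, 121.8 and 102.5 in DMSO, and 68.96 and 104.1 in ONX-0914 (Log2FC −0.47, SE 0.207, FDR = 0.271), and 12.5% of its exon bases lie opposite other genes. Its paralog Cyfip2 reached 590.0 CPM in ONX-0914 replicate 1 and 1118 in replicate 2, on both sides of the 896.5 to 1027 seen in control. Kalrn, a guanine nucleotide exchange factor of dendritic spines, was at 237.1 and 780.4 in ONX-0914 against 728 to 865.3 in control. Baiap2, which binds curved membrane and actin regulators, was at 68.46 and 274 against 128.1 to 135.5, and Sipa1l1, a Rap GTPase activating protein, at 236.1 and 510.2 against 423.2 to 473.6. For these 4 genes ONX-0914 replicate 1 was below the control range, and only Kalrn was not above that range in replicate 2.

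Gphn, which encodes gephyrin, lay slightly below control in both ONX-0914 libraries, with 67.2 and 66.48 CPM against 69.52 to 79.31 (Log2FC −0.19, SE 0.157, FDR = 0.533), a difference smaller than the range of the control libraries. Among the adaptors that move AMPA receptors, Gripap1, which acts at recycling endosomes, was below control in DMSO as well as in ONX-0914, with 108.4, 116.7 and 119 CPM in control, 78.07 and 91.38 in DMSO, and 97.4 and 81.22 in ONX-0914. Its Log2FC against control was −0.36 (SE 0.170, FDR = 0.291) for ONX-0914 and −0.44 (SE 0.172, FDR = 1) for DMSO. Pick1, a PDZ protein of receptor endocytosis, gave 39.77 CPM in ONX-0914 replicate 1 and 16.19 in replicate 2, around a control range of 25.63 to 36.08, and 18.6% of its exon bases are shared with Gm49486 on the same strand. Grip1 was within the control range in both ONX-0914 libraries.

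The auxiliary subunits held the second smallest p. Shisa9 (ENSMUSG00000022494), an AMPA receptor partner also known as CKAMP44, had 19.25, 18.54 and 24.23 CPM in control, 28.98 and 19.99 in DMSO, and 45.3 and 43.68 in ONX-0914. The ONX-0914 libraries were above all others and close to each other, at 2.15 times the control mean (Log2FC 1.10, SE 0.223, FDR = 0.0865). Over 17 alternatives the Log2FC of Shisa9 ranged from 1.03 to 1.24, with FDR up to 0.397. Neto2, an auxiliary subunit of kainate receptors, had 25.31, 28.36 and 26.44 CPM in control, 27.63 and 23.92 in DMSO, and 28.44 and 61.72 in ONX-0914 (Log2FC 0.77, SE 0.303, FDR = 0.232). This difference came from ONX-0914 replicate 2, without which the Log2FC was 0.08, while without replicate 1 it was 1.19. Neto1, its paralog, was at 38.51 in ONX-0914 replicate 1 and 95.29 in replicate 2 against 76.56 to 102 in control, so the ratio of Neto2 to Neto1 was 0.739 and 0.648 in ONX-0914 and 0.248 to 0.345 in control. Cnih2 had 79.28 and 368.9 CPM in the ONX-0914 libraries against 179 to 237.7 in control, one library below and one above. Cnih3 was above control in both, at 57.13 and 66.68 against 45.99 to 54.55 CPM (Log2FC 0.32, SE 0.170, FDR = 0.348).

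**Figure D3:**
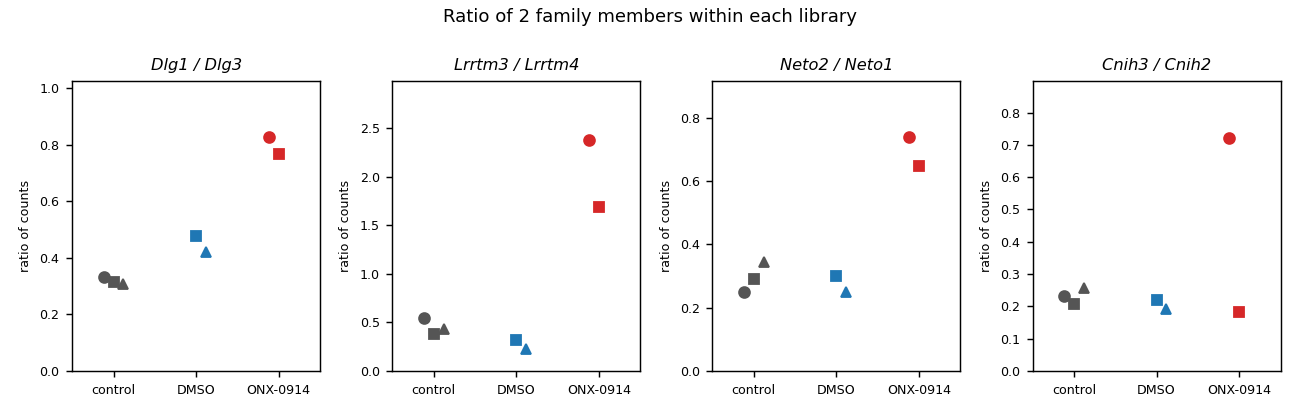
Ratio of the counts of 2 related genes within each library, for Dlg1 to Dlg3, Lrrtm3 to Lrrtm4, Neto2 to Neto1 and Cnih3 to Cnih2; circles, squares and triangles are replicates 1, 2 and 3. For the first 3 pairs both ONX-0914 libraries lie above the other 5 libraries, while for Cnih3 to Cnih2 the ONX-0914 libraries give 0.721 and 0.181, on both sides of control.

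Among adhesion molecules of the postsynaptic side, Lrrtm3 (ENSMUSG00000042846), a leucine-rich repeat protein of excitatory synapses, had the highest Log2FC of all 42 genes. It had 12.48, 8.179 and 11.29 CPM in control, 9.659 and 5.712 in DMSO, and 23.41 and 34.43 in ONX-0914. The ONX-0914 libraries were above all others, at 2.72 times the control mean (Log2FC 1.46, SE 0.301, FDR = 0.0907). Alternatives lay between 1.15 and 1.70, with FDR up to 0.403. It rested on 16 to 41 reads in each control and DMSO library. It sits within an intron of Ctnna3 on the opposite strand, with no exon bases in common. Lrrtm2 had 36.72, 31.63 and 32.22 CPM in control, 53.12 and 38.55 in DMSO, and 50.34 and 71.96 in ONX-0914 (Log2FC 0.88, SE 0.224, FDR = 0.133), so that all 4 injected libraries lay above control. Lrrtm4 was on the other side, with 22.82, 21.81 and 25.89 CPM in control, 30.59 and 25.7 in DMSO, and 9.816 and 20.42 in ONX-0914 (Log2FC −0.59, SE 0.306, FDR = 0.330), and 25.1% of its exon bases lie opposite Gm4409. The ratio of Lrrtm3 to Lrrtm4 was 0.375 to 0.547 in control, 0.316 and 0.222 in DMSO, and 2.38 and 1.69 in ONX-0914. Lrrtm1 had 50.17 to 63.46 CPM in control, with 46.56 and 65.16 in ONX-0914. Lrfn2 had 34.23, 33.81 and 42.68 CPM in control, 29.24 and 26.42 in DMSO and 21.65 and 29.54 in ONX-0914 (Log2FC −0.51, SE 0.218, FDR = 0.258), and again all 4 injected libraries were below control. Lrfn5, a related protein, was at 49.58 and 70.11 in ONX-0914 against 56.71 to 59.54.

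All 3 neuroligins had a Log2FC below 0. Nlgn3, which is found at excitatory and inhibitory synapses, had 78.44, 67.07 and 83.44 CPM in control, 66.54 and 77.11 in DMSO, and 53.61 and 33.17 in ONX-0914 (Log2FC −0.83, SE 0.239, FDR = 0.153). Both ONX-0914 libraries were below all others, and replicate 2 was the lowest. In the annotation 41.2% of its exon bases are shared with Gm21986 on the same strand, so reads there may be left out as ambiguous or assigned to either gene. Nlgn2, the neuroligin of inhibitory synapses, had 332.4 to 374 CPM in control, 281.4 and 298.8 in DMSO, and 318.4 and 207.2 in ONX-0914 (Log2FC −0.42, SE 0.212, FDR = 0.317). Nlgn1, of excitatory synapses, had 36.24 and 64.43 in ONX-0914 against 55.89 to 63.61 in control. The neurexins Nrxn2 and Nrxn3, presynaptic partners of these proteins, had Log2FC values of −0.14 and 0.35 and overlapped control.

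Ptprd, a presynaptic receptor phosphatase that binds several postsynaptic adhesion proteins, had 105.5, 105.8 and 113.5 CPM in control, 121 and 121.4 in DMSO, and 138.7 and 172.3 in ONX-0914. The 3 groups did not overlap, and they were ordered control, DMSO, ONX-0914 (Log2FC 0.52, SE 0.162, FDR = 0.168). Its partner Il1rapl1 was above control in both ONX-0914 libraries, with 9.816 and 12.23 CPM against 6.885 to 8.725 (Log2FC 0.49, SE 0.272, FDR = 0.357). The DMSO libraries, at 11.8 and 8.567 CPM, overlapped those of ONX-0914, with a Log2FC of 0.12 for ONX-0914 against DMSO. Ptprs, a related phosphatase, gave 196.8 and 335.2 in ONX-0914 around 265.8 to 296 in control.

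**Figure D4:**
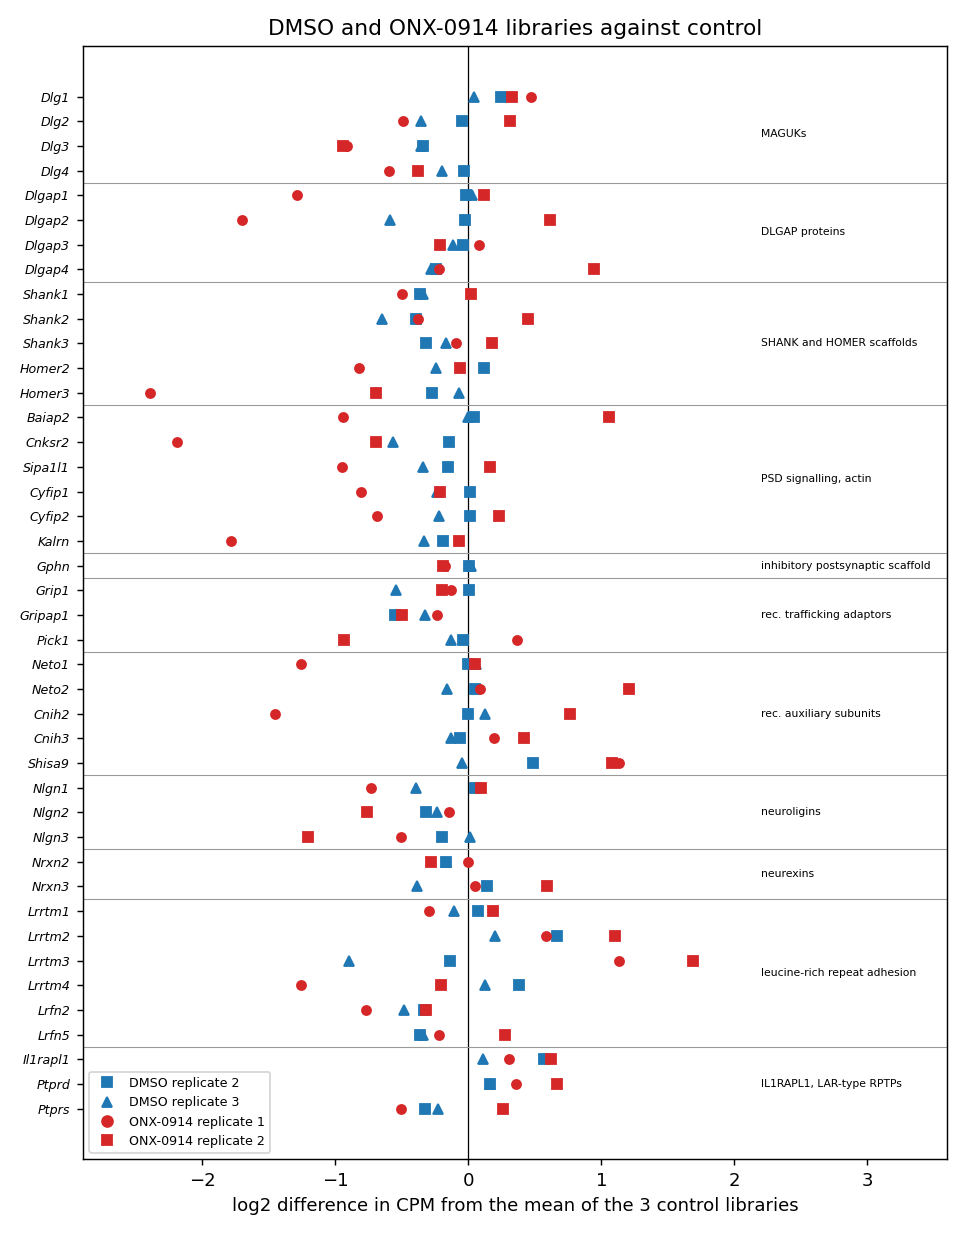
Difference of each DMSO and ONX-0914 library from the mean of the control libraries, on the log2 scale, for the 42 genes grouped by role. Red circles (ONX-0914 replicate 1) lie mostly left of 0, with 31 genes below and 11 above, and red squares (replicate 2) mostly right, with 17 below and 25 above. These directions were not counted over all genes.

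The ONX-0914 libraries were therefore also compared directly with each other. Replicate 2 was higher than replicate 1 for 31 of the 42 genes, with a median difference of 0.53 on the log2 scale. This direction was not counted over all genes. The median absolute difference was 0.60 for members and 0.56 over all genes. More than 1 apart were 13 members (31%), against 24.7% of all genes. From the control mean, the members' median difference was −0.43 in replicate 1 and 0.14 in replicate 2, beside 0.0388 and 0.0244 over all genes. The 42 genes together took 0.92% to 0.969% of the counts in control, 0.866% and 0.824% in DMSO, 0.671% in ONX-0914 replicate 1 and 1.09% in replicate 2. By role, the signalling and actin regulators summed to 1302 CPM in replicate 1 and 3073 in replicate 2 against 2781 to 3090 in control. The auxiliary subunits summed to 248.7 and 636.2 against 352.2 to 435. Hippocampal neuron markers summed to 2839 CPM in replicate 1 and 7784 in replicate 2, both below the 8669 to 9900 of control. In replicate 2, 4 of the 8 markers were below every control library and 3 were above. Against control, the median Log2FC of members was 0.128 in the fit without ONX-0914 replicate 1 and −0.439 in that without replicate 2. Over all genes it was 0.00826 and 0.025. In these fits the lone ONX-0914 library is assumed to vary like the other groups. The 2 fits share their control libraries. Without replicate 1 and without replicate 2, respectively, the Log2FC was −0.95 and −0.91 for Dlg3, 1.06 and 1.12 for Shisa9, 1.70 and 1.15 for Lrrtm3, and 1.10 and 0.59 for Lrrtm2.

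DMSO was then compared with control. This comparison holds no drug, and in it the vehicle and the injections cannot be told apart. In edgeR's test no member was below an FDR of 0.05 or 0.1 (0.0152% of all genes at either), DESeq2 (0.0684% of all genes) and limma voom (0%) also called 0, and 1 member, Gripap1, had an unadjusted p under 0.05 (2.65% of all genes, 1.17% lower and 1.48% higher). Still, 31 of the 42 had a Log2FC below 0, against 50.5% of all genes, with a median of −0.11 beside −0.00315 over all genes. The DMSO libraries did not overlap control for 18 members, with 16 lower (15% of all genes) and 2 higher, Lrrtm2 and Ptprd (15.7% of all genes). The differences were small. After Gripap1, the smallest p values belonged to Dlg3 (Log2FC −0.35, SE 0.159, FDR = 1), to Shank2, at 112.3, 128.7 and 136.6 CPM in control against 96.05 and 80.32 in DMSO (Log2FC −0.51, SE 0.257, FDR = 1), and to Lrrtm2 (Log2FC 0.46, SE 0.231, FDR = 1). Shank1 was also below control in both DMSO libraries, at 605.8 and 616.1 CPM against 740.0 to 823.1, as was Shank3, at 247.4 and 274.2 against 276.3 to 335.9. The shift was larger in DMSO replicate 3, with a median member difference from the control mean of −0.21, than in replicate 2, with −0.03. DMSO replicate 3 also had higher oligodendrocyte, microglia and endothelial marker sums than replicate 2, and their part in the shift was not tested. When only the 5 control and DMSO libraries were fitted, Shank2 passed an FDR of 0.05 (FDR = 0.0446), with 1.11% of all genes called.

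Against DMSO, no member was below an FDR of 0.05 or 0.1 in ONX-0914 (0.0456% and 0.297% of all genes) in edgeR's test, while DESeq2 called 1 (2.38%), Lrrtm3, beside 1.86% of all genes, and limma voom called 0, with 0.0456% of all genes. An unadjusted p under 0.05 was reached by 7 members (14.7% of all genes), with Dlg3, Nlgn3, Homer3 and Lrrtm4 lower (6.65% of all genes) and Lrrtm3, Shisa9 and Neto2 higher (8.08% of all genes). The groups did not overlap for 7 members that were lower (19.7% of all genes) and 10 that were higher (20.8% of all genes), with 20 members below 0 (46.2% of all genes). Lrrtm3 had the smallest p (Log2FC 1.90, SE 0.354, FDR = 0.113), followed by Shisa9 (Log2FC 0.85, SE 0.248, FDR = 0.218) and Dlg3 (Log2FC −0.58, SE 0.173, FDR = 0.222). This comparison shares its ONX-0914 libraries with the one against control and is not a separate experiment. For Gripap1 the Log2FC was 0.07, and for Lrfn2 −0.11, so both were near the DMSO level. The median over members was 0.03 beside 0.05 over all genes.

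**Figure D5:**
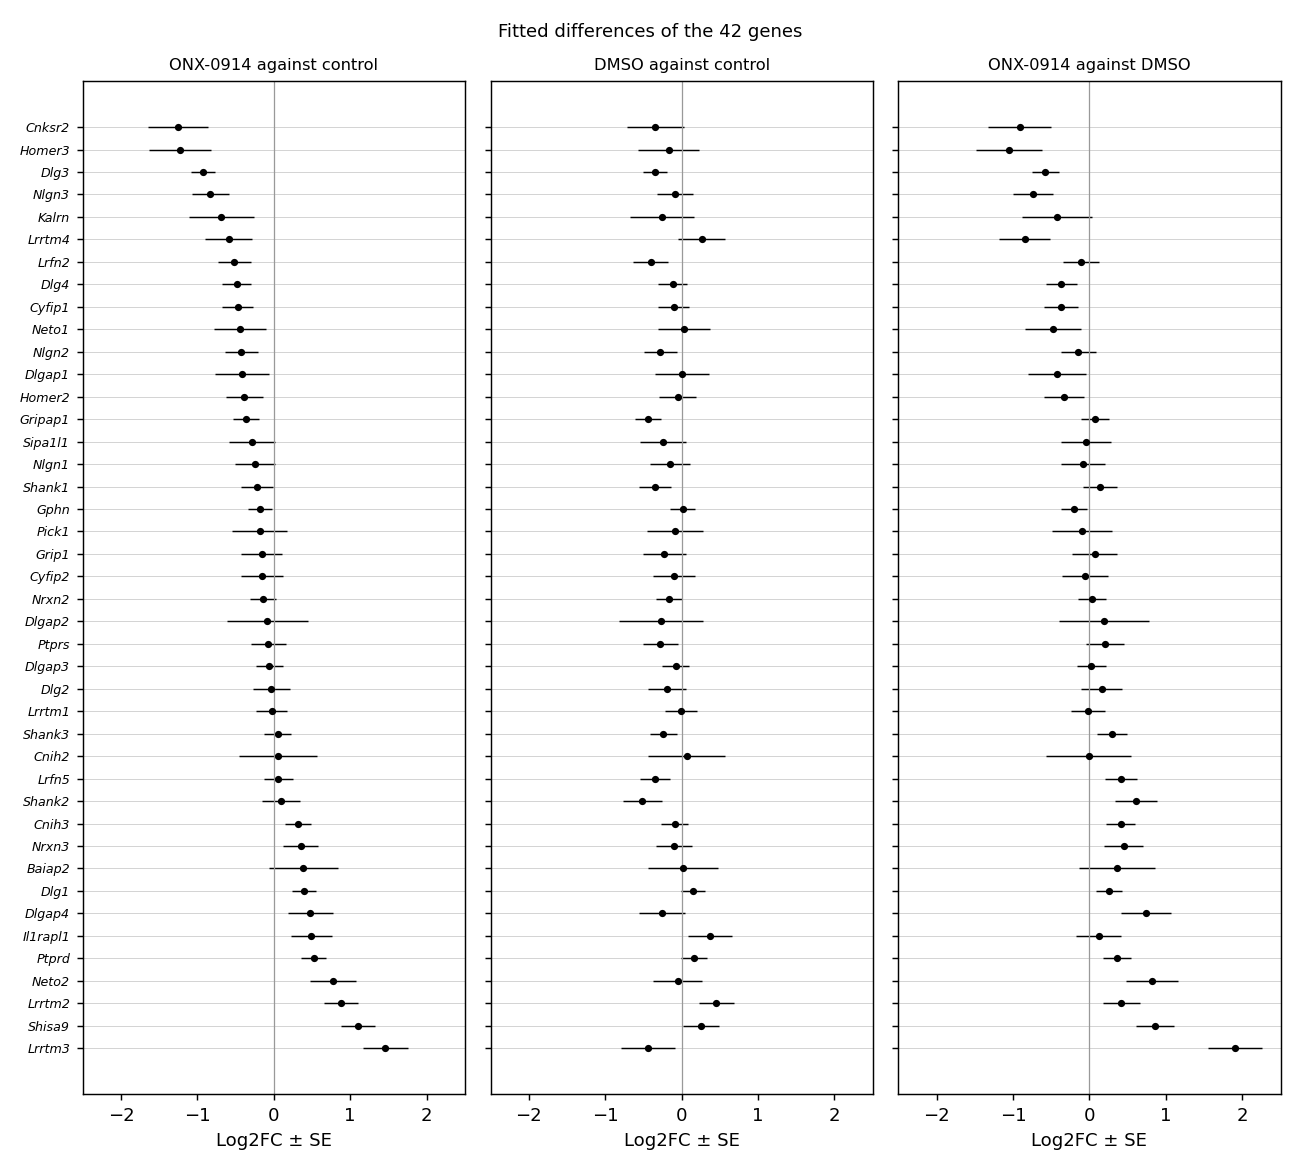
Log2FC of the 42 genes with its standard error in ONX-0914 against control, DMSO against control and ONX-0914 against DMSO, ordered by the first. The values of the DMSO comparison stay close to 0, between −0.51 for Shank2 and 0.46 for Lrrtm2, while ONX-0914 against control runs from −1.25 for Cnksr2 to 1.46 for Lrrtm3.

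Other genes of the same synaptic compartments were counted for context in ONX-0914 against control. The smallest FDR among them was 0.0509. Of 31 other postsynaptic density scaffold and signalling genes, 11 (35.5%) had an unadjusted p under 0.05, 9 lower and 2 higher, against 18.6% of all genes (8.04% lower and 10.6% higher). The smallest p values were those of Tanc1, a PDZ-binding scaffold, with 283.1, 331.5 and 270.4 CPM in control, 285.7 and 234.2 in DMSO and 138.9 and 144.3 in ONX-0914 (Log2FC −1.06, SE 0.182, FDR = 0.0728), of Dbn1, the spine actin-binding protein drebrin, with 506.6, 545.3 and 589.1 CPM against 287.7 and 273.3 in ONX-0914 (Log2FC −0.96, SE 0.172, FDR = 0.0728), and of Mpp3 (Log2FC −0.95, SE 0.221, FDR = 0.115). Of 37 other adhesion molecules, 4 were lower and 5 higher at that p (24.3%), near the share of all genes. Mdga1, which binds neuroligins and blocks their contact with neurexins, had 99.12, 91.34 and 99.97 CPM in control, 92.83 and 90.67 in DMSO and 43.04 and 33.24 in ONX-0914 (Log2FC −1.35, SE 0.181, FDR = 0.0509). Cbln2, a secreted bridge from neurexins to postsynaptic receptors, had 7.844, 6.271 and 6.885 CPM in control, 10.2 and 6.425 in DMSO and 27.69 and 18.44 in ONX-0914 (Log2FC 1.70, SE 0.298, FDR = 0.0728), and Lrrc4, a netrin-G ligand, had a Log2FC of −0.97 (SE 0.186, FDR = 0.0756). The ONX-0914 libraries of Mdga1, Tanc1 and Dbn1 stood apart from the other 5 libraries and close to each other, as those of Dlg3 did. These genes were named for their small p, which favours such closeness, so it is no separate support. Of 13 other auxiliary subunits, 3 were lower and 1 higher at that p (30.8%), with Cacng7 at 0.79 (SE 0.152, FDR = 0.0758), Cacng8 at −1.19 (SE 0.289, FDR = 0.124) and Frrs1l at −0.70 (SE 0.196, FDR = 0.147), all of which accompany AMPA receptors. Among 4 other inhibitory postsynaptic genes, Iqsec3 had a Log2FC of −0.51 (SE 0.186, FDR = 0.213). The medians of the first 3 lists, in the order given, were −0.17, 0.07 and 0.32, beside 0.05 over all genes.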

How the data were processed

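Hippocampal RNA was sequenced in 7 libraries prepared with a directional kit and read single-end. The authors deposited whole-number counts per gene, not normalized, with 1 file per library. The submitters' processing notes name Trimmomatic 0.39, STAR 2.7.3a, featureCounts 2.00 and GRCm39, and the annotation and strand setting are not given in the sources used here. Reads outside genes (4.75% to 6.49%) and reads that were ambiguous between genes (3.75% to 3.92%) stayed out of library sizes and tests.

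Symbols came from a reference list of gene names, through which each of the 42 genes matched 1 identifier. Exon lengths and overlaps came from GENCODE M21, and upstream windows from RefSeq (GRCm38.p6). Differences were tested with edgeR 4.0.16 in R 4.3.3 (filterByExpr, TMM, glmQLFit and glmQLFTest, 1 mean per group over all 7 libraries), with Benjamini–Hochberg adjustment over all 13152 genes. Fitted Log2FC values use a prior count of 0.125, and the common coefficient of biological variation came to 0.249. The script was tested on simulated counts. Alternatives were DESeq2 1.42.0, limma 3.58.1 (voom), RLE size factors, total counts, no low-count filter, a minimum of 10 counts per library, the compared groups alone, the replicate number as a block, a prior count of 2 and leaving out each library. The earlier form of edgeR's quasi-likelihood fit was added after seeing the data.

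The 42 genes, their roles and all other lists were chosen with earlier results of these data known. Values per library, with Log2FC, SE and FDR, were given for the 14 smallest p in ONX-0914 against control and the 4 smallest in DMSO against control. For up to 3 per list of other synaptic genes, Log2FC, SE and FDR were given, with values per library for some. The 4 highest and 2 lowest levels per kilobase in control were also named. Values of further members are descriptions by role, some with Log2FC, SE and FDR. The result of 1 gene of the other inhibitory postsynaptic genes, and the summaries of that list, are not reported here.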

Additional observations from a re-analysis of the deposited data

How the results depend on the processing

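Each treated group had 2 libraries. In ONX-0914 against control, the count of members at an FDR of 0.05 (0) became 4 with DESeq2 (2.95% of all genes called) and 4 with no filter on low counts (2.15%), and the count at 0.1 (3) became 7 in both. With the compared groups only, the latter was 0. The share of all genes at 0.1 was counted for the main fit only. Leaving out 1 library at a time gave 0 to 25 members at 0.05, 0 to 27 at 0.1 and medians from −0.439 to 0.128, and each control or DMSO library left out gave 0 at both thresholds. In DMSO against control, the compared groups only gave 1 member at 0.05 (1.11% of all genes called) and 4 at 0.1. Leaving out 1 library gave medians from −0.211 to −0.0397. The 4 were Dlg3, Shank1, Shank2 and Gripap1. In ONX-0914 against DMSO, DESeq2 and no filter on low counts each gave 1 member at 0.05 (1.86% and 1.11% of all genes called) and 1 at 0.1, Lrrtm3, and leaving out 1 library gave 0 to 26 and 0 to 27, with 26 without ONX-0914 replicate 1 (46% of all genes called) and 18 without replicate 2 (17%), and medians from −0.214 to 0.204. The direction of 2 named values in this comparison turned. Lrfn2 (−0.11) was 0.0329 with total counts and 0.0267 with the replicate block, and ranged from −0.373 to 0.0696 when 1 library was left out, above 0 without ONX-0914 replicate 1. Gripap1 (0.07) ranged from −0.064 to 0.204, below 0 without DMSO replicate 2 (−0.0423) or ONX-0914 replicate 1. Total counts in ONX-0914 against DMSO moved the split of members from 20 below and 22 above 0 to 13 and 29, with a median of 0.185 over all genes. For the directional changes between fits the cause was not tested.

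The replicate number as a block gave 0 members at 0.1 in ONX-0914 against control (median −0.194) and 0 in both other comparisons. Deviations from the group means of same-numbered libraries correlated between −0.0963 and 0.064. With 2 libraries in each treated group, the deviations within a group mirror each other, so these values cannot exclude a pairing. The labels give only a number, and the pairing was not used in the main fit. Depth limits the low-count genes most, such as Il1rapl1 and Lrrtm3.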
